A study of Saccharomyces cerevisiae with 12 samples.

Results

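The cytosolic ribosomal protein genes of budding yeast were taken as every gene whose symbol is RPL or RPS followed by a number and, for duplicated genes, the letter A or B. RefSeq (assembly R64) lists 132 such genes. A probe set that the platform annotation lists for 1 gene only was found for 75 of them, 42 of the large (60S) subunit and 33 of the small (40S) subunit, among 5656 genes of the series with such a probe set. Another 54 ribosomal protein genes were on probe sets listed for several genes, and the other 3 were not analysed here. The members were chosen by name and not by any measured value, although earlier results of these data were known when the family was picked.

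RNA was compared between 4 groups of Saccharomyces cerevisiae cultures, each with 3 biological replicates on separate 1-colour Affymetrix arrays. They were ρ0 cells (without mitochondrial DNA) after 4 h in CM medium lacking glucose, ρ0 cells in CM medium with 2% glucose, ρ+ cells (with mitochondrial DNA) after 4 h lacking glucose, and ρ+ cells in 2% glucose. All cultures were grown at 22 °C, and each starved sample was the other part of a culture sampled in glucose, spun down, washed once and shaken again. No group was washed and shaken for 4 h with glucose, so glucose loss cannot be told apart from the washing and the added hours, and "withdrawal" stands here for all of these steps. The sources used here do not give the strain background, the way the ρ0 cells were made or how the replicate cultures were started. The label of the ρ0 cells was borne out by OLI1, a gene of mitochondrial DNA, which averaged 0.285 ± 0.131 without glucose and 0.32 ± 0.0797 in glucose in ρ0 cells, against 128 ± 15.2 and 128 ± 29.3 in ρ+ cells (array signal, SD, n = 3 each).

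Ribosomal proteins are the protein part of the ribosome, and in yeast most of them are made from a pair of duplicated genes, called copy A and copy B. Their transcripts are among the most abundant of growing cells. The genes are transcribed together through the DNA-binding protein Rap1 with Fhl1, Ifh1 and Sfp1, and this transcription follows nutrient signals carried by the TOR kinases and by protein kinase A. Several ribosomal proteins also bind their own transcript or that of the other copy and limit its splicing or stability.

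Signals are in arbitrary units. A change is the difference between group means of log2(signal + 1.498), with its standard error (SE) and an adjusted p from limma over 5361 genes with a threshold of 0.05. "Rose" and "fell" are used only of changes past that threshold. Signals depend on the probes, so levels of different genes are not compared, except to sort genes as dimmer or brighter. That sorting depends on the probes too. All 75 genes passed the filter on dim genes, and the lowest signal of any member on any array was 168. Replicates within a group correlated across all genes at 0.956 to 0.990. The hybridization control CreX was low on replicate 2 of ρ0 in glucose (285) and replicate 1 of ρ0 without glucose (487), against 525 to 869 on the other arrays. For 14 members the probe set's name says that similar transcripts share it (called shared below), and for 16 it says that the set of unique probes is incomplete. The signal is scaled per array, so a share of the mRNA pool was measured, and fewer transcripts per cell cannot be told apart from more of other transcripts.

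After withdrawal in ρ+ cells, 33 of 75 ribosomal protein transcripts fell and 0 rose. This is 44% of the members, where 22.2% of all genes tested fell and 10.5% rose. At an unadjusted p below 0.05 limma gave 37 lower and 0 higher, 49.3% and 0% of the members, against 29.5% and 13.7% of all genes. The median change of the members was -0.35, against -0.19 over all genes, and 66 of 75 changes were below 0. Relative to the median gene the shift of the members was therefore -0.16. The falls were mostly of members with lower mean signals. Of the 37 dimmer members 27 fell (73%), with a median change of -0.59. Of the 38 brighter members 6 fell (15.8%), with a median of -0.21, which is -0.02 relative to all genes. The cause of this split was not tested. The 3 arrays of ρ+ cells without glucose and the 3 in glucose did not overlap for 44 members that were lower and 1 that was higher, where 35.1% and 16.5% of all genes did not overlap in those directions. The 75 genes together gave 13.7%, 15.1% and 14.3% of the summed gene signal on the ρ+ arrays without glucose, against 16.8%, 17.5% and 17.7% in glucose, so the 2 groups did not overlap. After scaling to the poly-A controls 8 members fell, 10.7% of them against 7.65% of all genes. These controls were dim, with array means of 3.38 to 4.06 on the log2 scale. Both ends of that range were replicates of ρ+ cells in glucose, at 4.06, 3.80 and 3.38, so scaling to them adds spread between replicates. After centring each array on its median 13 fell and 2 rose (RPL15B and RPS26A), or 17.3% and 2.67%, against 10.2% and 15% of all genes. Both of these scalings move all genes of an array alike, so by construction they cannot change the shift of -0.16. With the arrays quantile normalized 38 fell, 50.7% against 14.1% of all genes, and the shift was -0.31. The call held whichever 1 array was left out for 22 of the 33 genes.

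After withdrawal in ρ0 cells, 13 of 75 fell and 0 rose, which is 17.3% of the members, where 12.4% of all genes fell and 4.59% rose. At an unadjusted p below 0.05 limma gave 31 lower and 1 higher, 41.3% and 1.33% of the members, against 22.1% and 9.77% of all genes. The median change was -0.25, against -0.11 over all genes, a shift of -0.14 relative to the median gene. The groups did not overlap for 26 members that were lower and 1 that was higher, where 21.2% and 9.44% of all genes did not overlap in those directions. The share of the summed signal was 12.7%, 13.6% and 13.8% without glucose, against 15%, 15% and 16.2% in glucose. By mean signal, 11 of the 37 dimmer members fell (29.7%, median change -0.34) and 2 of the 38 brighter (5.26%, median -0.16). After scaling to the poly-A controls 2 fell, and after median centring 3. These are 2.67% and 4% of the members, below the 5.33% and 7.09% of all genes that fell on those scales. With the arrays quantile normalized 20 fell, 26.7% against 9.2% of all genes, with a shift of -0.30 relative to the median gene. Without both arrays of low hybridization controls 6 fell, and 4 with only the ρ0 groups fitted. The call held whichever 1 array was left out for 3 of the 13 genes, RPS10A, RPS28B and RPS9A. Leaving out 1 array moved the count of 13 to 5 and 6 without replicates 2 and 3 of the ρ+ arrays in glucose, to 4 and 5 without replicates 1 and 2 of the ρ0 arrays lacking glucose, and to 4 without replicate 3 of the ρ0 arrays in glucose. The count of 33 in ρ+ cells stayed between 23 and 35 when any 1 array was left out.

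**Figure D1:**
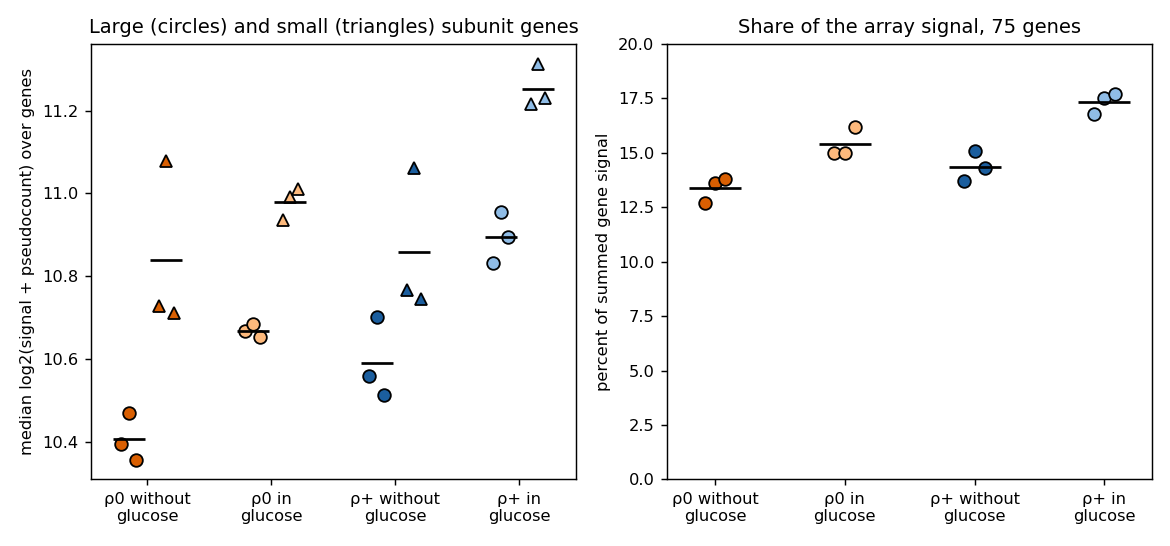
Left, the median log2(signal + pseudocount) of the 42 large subunit genes (circles) and the 33 small subunit genes (triangles) on each of the 12 arrays, by group; right, the percent of the summed gene signal that the 75 genes gave on each array. Points are single arrays and bars are group means; the share lay at 12.7% to 13.8% in ρ0 cells without glucose, 15% to 16.2% in ρ0 cells in glucose, 13.7% to 15.1% in ρ+ cells without glucose and 16.8% to 17.7% in ρ+ cells in glucose.

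Genes of both subunits fell. In ρ+ cells 19 of 42 large subunit genes (45.2%) and 14 of 33 small subunit genes (42.4%) fell, with median changes of -0.38 and -0.29. Of all genes 22.2% fell there, with a median of -0.19. In ρ0 cells 8 of 42 (19%) and 5 of 33 (15.2%) fell, with medians of -0.30 and -0.21. There 12.4% of all genes fell, with a median of -0.11, so the share of small subunit genes was near that of all genes. The median over large minus that over small subunit genes was -0.09 in both withdrawals, and in ρ+ cells it was 0.01 without the second array lacking glucose. In ρ0 cells almost none of this difference was left with only probe sets not marked shared. No test was made between the subunits.

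**Figure D2:**
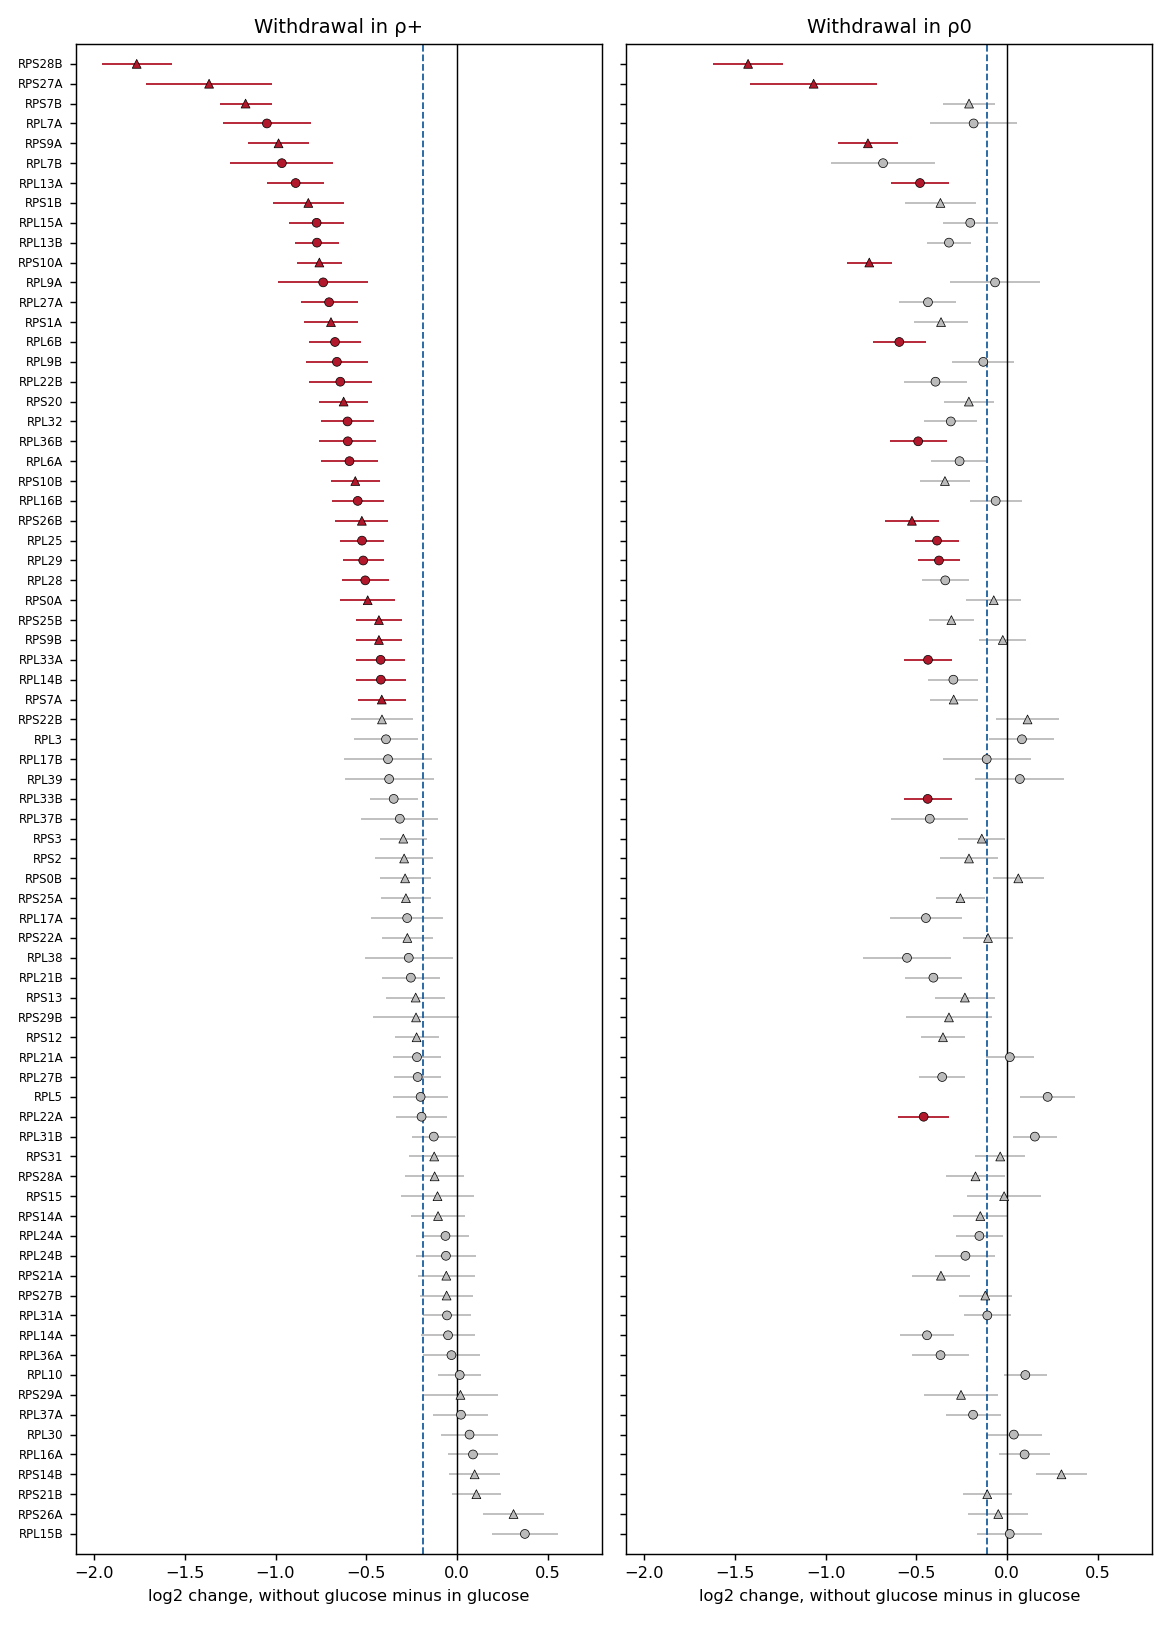
The log2 change at withdrawal (without glucose minus in glucose) of each of the 75 genes in ρ+ cells (left) and ρ0 cells (right), with its standard error, in the order of the change in ρ+ cells. Circles are large and triangles small subunit genes, red marks an adjusted p below 0.05, and the dashed line is the median of all genes tested (-0.19 in ρ+ and -0.11 in ρ0); RPS28B and RPS27A stand furthest to the left in both panels.

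The 3 largest falls in ρ+ cells and the 4 largest in ρ0 cells were of small subunit genes. RPS28B, which encodes a protein of the small subunit that in yeast promotes decay of the RPS28B transcript itself, gave signals of 825, 721 and 739 in ρ+ cells without glucose, against 2180, 2844 and 2794 in glucose. In ρ0 cells it gave 489, 862 and 562 without glucose, against 1479, 1614 and 1945 in glucose. Every starved array lay below every glucose array of its strain. The transcript fell 3.40-fold in ρ+ cells (log2 change -1.76 ± 0.19, adjusted p = 9.6e-06) and 2.69-fold in ρ0 cells (-1.43 ± 0.19, adjusted p = 0.000272). These values come from a probe set whose set of unique probes is incomplete. A further RPS28B probe set, marked shared, gave -1.52 and -1.10 in the fit over all probe sets.

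RPS27A encodes a zinc-finger protein of the small subunit. It gave 212, 657 and 608 in ρ+ cells without glucose, against 977, 1158 and 1290 in glucose, and 306, 460 and 606 in ρ0 cells without glucose, against 985, 716 and 1120 in glucose. The groups did not overlap in either strain, but the first ρ+ array without glucose was well below the others of its group. The change was -1.37 ± 0.35 in ρ+ cells (adjusted p = 0.0083) and -1.07 ± 0.35 in ρ0 cells (adjusted p = 0.0482). The ρ0 call was kept in 12 of 22 alternatives and without 5 of the 12 arrays left out in turn. The ρ+ call was lost with only the ρ+ groups fitted (adjusted p = 0.091).

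RPS10A (shared probe set), for a protein of the head of the small subunit, gave 984, 1125 and 1090 in ρ+ cells without glucose, against 1884, 1765 and 1759 in glucose. In ρ0 cells it gave 786, 899 and 837, against 1476, 1328 and 1469. The groups were far apart in both strains, and the changes were -0.76 ± 0.13 in each (adjusted p = 0.000426 in ρ+ and 0.0011 in ρ0). RPS9A (shared), for a protein at the entry of the mRNA channel, gave 237, 338 and 369 in ρ+ cells without glucose, against 588, 640 and 612 in glucose, and fell by 0.98 ± 0.17 on the log2 scale (adjusted p = 5e-04). In ρ0 cells it gave 382, 381 and 393, against 668, 592 and 716, and fell by 0.77 ± 0.17 (adjusted p = 0.00643).

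Among large subunit genes, RPL7A and RPL7B fell by 1.05 ± 0.24 and 0.97 ± 0.28 on the log2 scale in ρ+ cells (adjusted p = 0.00464 and 0.0184), and RPL13A and RPL13B by 0.89 ± 0.16 and 0.77 ± 0.12 (adjusted p = 0.000743 and 0.000334). All of these encode structural proteins of the large subunit. RPL7A and RPL7B were read on probe sets whose set of unique probes is incomplete. RPL7A gave 1902, 1732 and 845 in ρ+ cells without glucose, and its call was lost with only the ρ+ groups fitted (adjusted p = 0.0552). The RPL7B call was kept in 17 of 22 alternatives and without 9 of the 12 arrays left out in turn. RPL13A gave 704, 698 and 873 in ρ+ cells without glucose, against 1393, 1278 and 1534 in glucose, and 694, 773 and 876 in ρ0 cells without glucose, against 913, 1120 and 1251 in glucose. The groups did not overlap, and the gene also fell in ρ0 cells (-0.48 ± 0.16, adjusted p = 0.0485), a call kept in 8 of 22 alternatives. RPL25, whose protein lies at the exit of the tunnel for new polypeptide chains, fell by 0.52 ± 0.12 in ρ+ cells and by 0.39 ± 0.12 in ρ0 cells (adjusted p = 0.00408 and 0.0362). Its ρ0 call was kept in 11 of 22 alternatives.

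**Figure D3:**
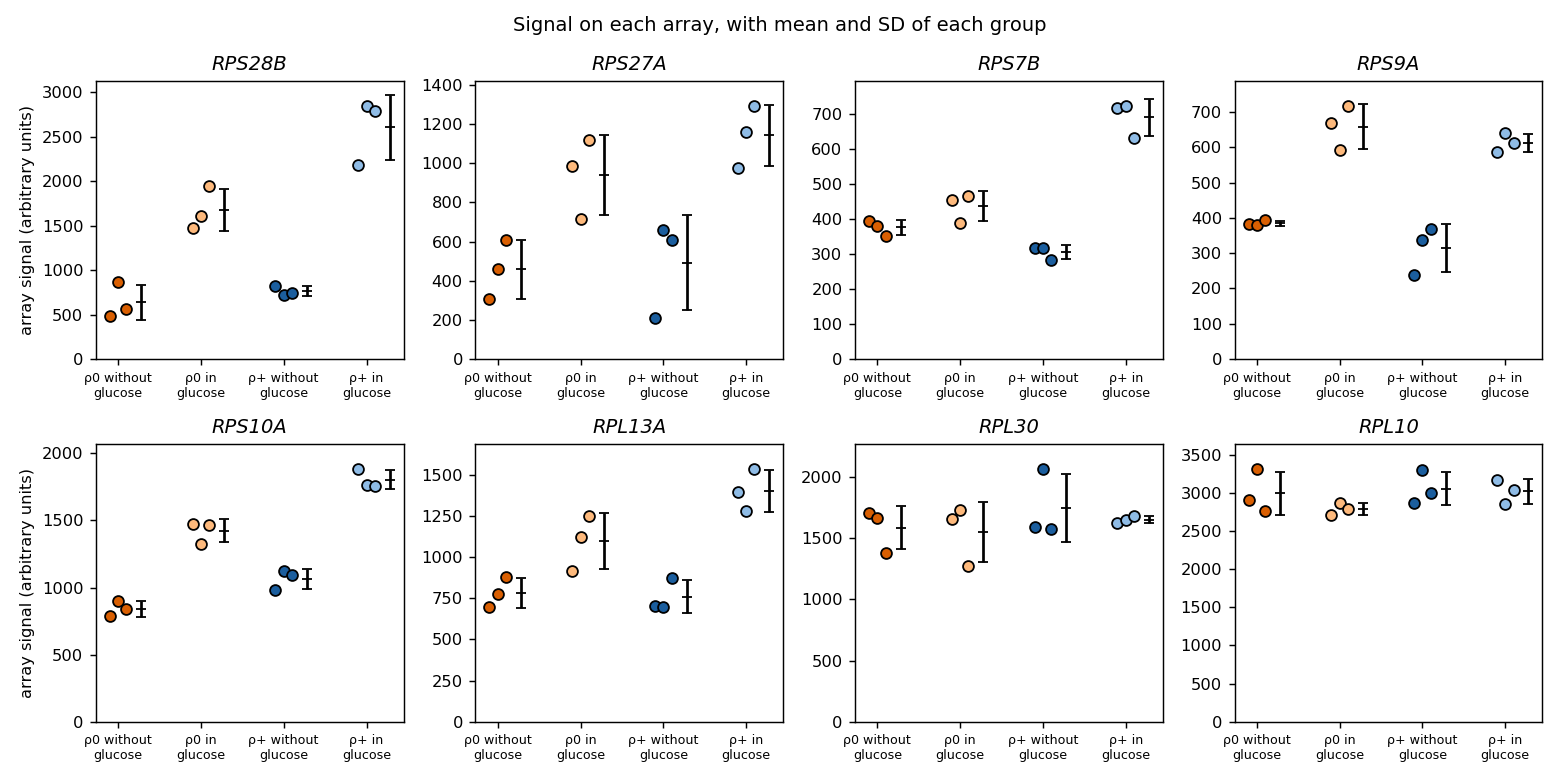
Array signal (linear, arbitrary units) of 8 genes on each of the 12 arrays, with the mean and SD of each group (n = 3). RPS28B, RPS27A, RPS9A, RPS10A and RPL13A were lower without glucose in both strains; RPS7B was lower mainly in ρ+ cells, at 284 to 319 without glucose against 631 to 723 in glucose, and the groups of RPL30 and RPL10 overlapped.

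Of the 33 genes that fell in ρ+ cells, 11 also fell in ρ0 cells. That is 33.3% of the 33 and 84.6% of the 13 that fell in ρ0 cells, where RPL22A and RPL33B were the others. The same overlap over all genes was not worked out, so these shares cannot be read as particular to the members. The withdrawals share no arrays. Across the 75 genes the changes in ρ+ and ρ0 cells correlated at r = 0.64 (Spearman 0.48), at 0.55 (0.46) without RPS28B, at 0.48 (0.44) without RPS28B and RPS27A, and at 0.45 (0.44) across all 5361 genes. These are descriptions across genes, which are not independent replicates.

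Of the 737 other genes whose mean signal was at least that of the dimmest member, 14.9% fell and 18.5% rose in ρ+ cells, with a median change of 0.04, and 6.51% fell and 12.3% rose in ρ0 cells, with a median of 0.10. The medians of the members were 0.39 and 0.36 below these. The control probe sets for ribosomal RNA, 10 in number, moved the other way: they averaged 8.61 ± 0.108 on the log2 scale without glucose and 7.29 ± 0.278 in glucose in ρ+ cells, and 8.35 ± 0.521 and 7.53 ± 0.384 in ρ0 cells (SD, n = 3). Their part in the changes of the members was not tested.

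Some members did not pass the test in either withdrawal. RPL30, whose protein blocks splicing of its own transcript, gave 1595, 2066 and 1578 in ρ+ cells without glucose, against 1624, 1651 and 1678 in glucose, a change of 0.07 ± 0.15. RPL10, whose protein joins the large subunit late, in the cytoplasm, gave a change of 0.01 ± 0.12 in ρ+ cells and 0.10 ± 0.12 in ρ0 cells. RPL3, a core protein of the peptidyl transferase centre, gave -0.39 ± 0.18 and 0.08 ± 0.18, and RPL5, which carries the smallest ribosomal RNA, gave -0.20 ± 0.15 and 0.22 ± 0.15. RPS31, made as a fusion to ubiquitin, gave -0.13 ± 0.14 and -0.04 ± 0.14. These SEs leave room for changes of moderate size in either direction.

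The A and B copies were compared by the change of their log2 ratio, in the 24 pairs in which each copy has a probe set that is not marked shared. Some of these sets have an incomplete set of unique probes. They are those of both copies in the RPL7, RPL9, RPL17, RPL36, RPS1, RPS21, RPS25 and RPS28 pairs, and of RPL27A, RPL31B, RPS22B and RPS26A. In ρ+ cells the change of copy A minus that of copy B was above 0 in 14 pairs and below 0 in 10, and in ρ0 cells in 13 and 11. The median size was 0.18 and 0.22. The changes of the ratios are given as a description, with no test. In ρ+ cells 7 pairs differed by more than 0.5, and in ρ0 cells 2 did, a bound chosen after the values were seen.

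The RPS28 and RPS27 pairs differed in both strains. The RPS28 pair, where copy A was read on a probe set of its own in place of its brighter shared one, had log2 A/B ratios of -0.45, -0.44 and -0.46 in ρ+ cells without glucose, against -1.36, -2.16 and -1.85 in glucose. Copy B therefore lost more, by 1.34 ± 0.23 in ρ+ and 1.21 ± 0.39 in ρ0 cells (SE of the difference). In the RPS27 pair copy A lost more: the ratio fell by 1.31 ± 0.47 in ρ+ and by 0.95 ± 0.37 in ρ0 cells, while RPS27B itself changed by -0.06 and -0.12.

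The other pairs past that bound in ρ+ cells were not past it in ρ0 cells, and whether the changes of their ratios differ between the strains was not tested. RPL15A, the copy of a core large subunit protein, gave 653, 609 and 747 in ρ+ cells without glucose, against 999, 1297 and 1148 in glucose, and fell by 0.77 ± 0.15 (adjusted p = 0.00154). RPL15B gave 283, 242 and 312, against 198, 241 and 204, so its groups did not overlap but touched at 242 and 241, and the change was 0.37 ± 0.18, with an adjusted p of 0.124 (it rose past the test after median centring). The A/B ratio of this pair changed by -1.15 ± 0.06 in ρ+ and -0.22 ± 0.21 in ρ0 cells. In the RPS26 pair, for a protein near the exit of the mRNA channel, copy B fell by 0.52 ± 0.15 in both strains (adjusted p = 0.0135 and 0.0227), while RPS26A changed by 0.31 ± 0.17 and -0.05 ± 0.17. For RPL16 the ratio changed by 0.64 ± 0.12 in ρ+ and 0.16 ± 0.04 in ρ0 cells, for RPL36 by 0.57 ± 0.21 and 0.12 ± 0.21, and for RPS7 by 0.75 ± 0.11 and -0.08 ± 0.18. The RPS7 ratio depends on the probe set. The RPS7A set used changed by -0.41 in ρ+ and -0.30 in ρ0 cells. A second plain RPS7A set gave -0.97 and -0.72 in the limma fit over all probe sets (adjusted p = 0.000473 and 0.00833).

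**Figure D4:**
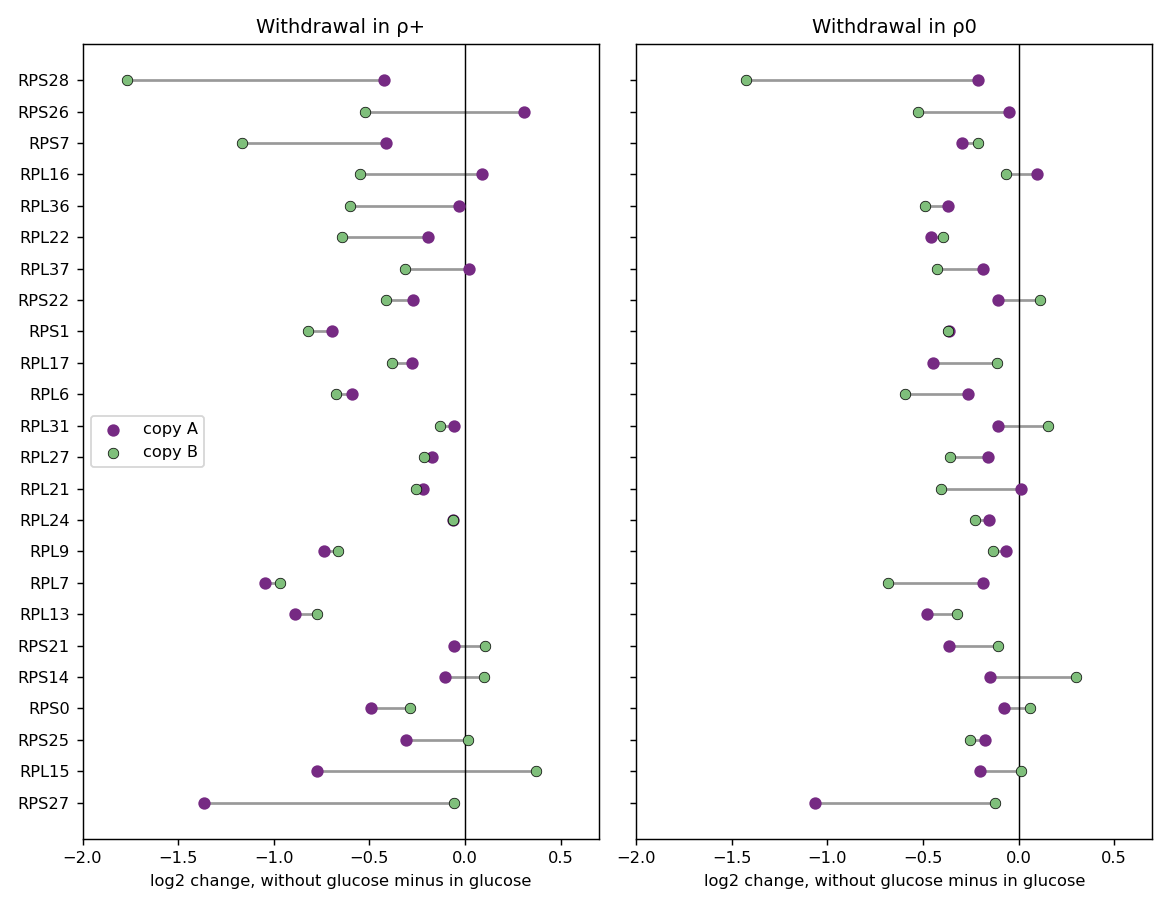
The log2 change at withdrawal of copy A (purple) and copy B (green) for the 24 pairs with probe sets not marked shared, in ρ+ cells (left) and ρ0 cells (right), ordered by the difference A minus B in ρ+ cells. Some of these sets, with both of RPS28, have an incomplete set of unique probes. The RPS28 pair (top) and the RPS27 pair (bottom) are far apart in both panels. RPL15 and RPS7 are far apart in ρ+ cells, by -1.15 and 0.75, and by -0.22 and -0.08 in ρ0 cells. A second plain probe set of RPS7A, not drawn, gave a change of -0.97 in ρ+ and -0.72 in ρ0 cells.

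Both copies fell in 8 of the 29 pairs with both copies measured in ρ+ cells (RPL6, RPL7, RPL9, RPL13, RPS1, RPS7, RPS9 and RPS10). Only copy A passed the test in 5 pairs, only copy B in 7 and neither in 9. In ρ0 cells both copies passed in 1 pair, RPL33. These counts include probe sets marked shared, on which the copies may not be told apart, and both RPL33 genes were read on such sets. On their probe sets not marked shared, RPS25B and RPL27A changed by 0.01 and -0.17 in ρ+ cells (adjusted p = 0.965 and 0.431). By copy, 13 of 29 A genes (44.8%), 15 of 29 B genes (51.7%) and 5 of 17 genes without a letter (29.4%) fell in ρ+ cells. Of all genes 22.2% fell there.

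RPS7B was the 1 member whose response to withdrawal differed between the strains, where 1.66% of all genes had a higher and 5.37% a lower response in ρ0 cells. Rps7 is a small subunit protein that in yeast is ubiquitinated by Not4. RPS7B gave 396, 381 and 353 in ρ0 cells without glucose, against 455, 388 and 467 in glucose, and these ranges overlapped. In ρ+ cells it gave 318, 319 and 284, against 719, 723 and 631, and these were far apart. The change was -0.21 ± 0.14 in ρ0 cells (adjusted p = 0.332) and -1.16 ± 0.14 in ρ+ cells (adjusted p = 3.05e-05), a difference of 0.95 ± 0.20 (adjusted p = 0.00848). A second, plain probe set of RPS7B gave a difference of 0.62 ± 0.24 with an adjusted p of 0.156 in the fit over all probe sets. RPL7A had the next largest difference, 0.86 ± 0.34 with an adjusted p of 0.148, and its 2 other probe sets gave 1.31 and 1.63 (adjusted p = 0.00446 and 0.00569). The first of these 2 sets is marked shared. The second was dim, with a mean signal of 11.1 against 2280 for the set used. The RPS7B difference had an adjusted p of 0.171 after scaling to the poly-A controls, and 2 members passed the test without replicate 2 of ρ0 in glucose or with all probe sets of a gene averaged.

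In glucose, ribosomal protein transcripts stood lower in ρ0 than in ρ+ cells relative to the median gene. The median difference of the members was -0.23 where the median gene was 0.13 higher, so the members stood at -0.36 relative to all genes, and 71 of 75 lay below the all-gene median. By the test 4 members were lower and 0 higher, 5.33% of the members, where 1.44% of all genes were lower and 4.96% higher, and limma gave 19 lower and 1 higher at an unadjusted p below 0.05 (25.3% and 1.33%, against 5.91% and 18% of all genes). The arrays of the strains did not overlap for 25 members that were lower and 1 that was higher, against 8.06% and 22.6% of all genes. After scaling the arrays to the poly-A controls the median was -0.03 and 0 members passed the test, where 0.41% of all genes were lower and 6.64% higher. After median centring 10 were lower, 13.3% against 2.85% of all genes. With quantile normalization the position relative to all genes was -0.18, and against the 737 other genes at least as bright as the dimmest member it was -0.23. The large and small subunit medians were -0.24 and -0.23. Without replicate 2 of the ρ+ arrays in glucose the count was 0, without replicate 1 or 3 it was 1, and without the second ρ0 array in glucose it was 2.

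The 4 genes that were lower in ρ0 cells in glucose were RPS7B, RPL36B, RPL6A and RPS14B. RPL36B, a large subunit gene, gave 536, 455 and 544 in ρ0 cells, against 722, 933 and 775 in ρ+ cells, a change of -0.66 ± 0.16 (adjusted p = 0.0225). It was read on a probe set whose set of unique probes is incomplete. RPL6A, also of the large subunit, gave 662, 452 and 602, against 912, 841 and 840 (-0.61 ± 0.16, adjusted p = 0.0307). RPS14B, whose transcript is repressed by the protein it encodes, gave 296, 291 and 272, against 430, 421 and 456 (-0.60 ± 0.14, adjusted p = 0.0179). The strains did not overlap for any of these genes, but none of the 4 calls held whichever array was left out.

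Without glucose, 4 members, RPL36B, RPS14B, RPL33A and RPL33B, were lower in ρ0 than in ρ+ cells and 0 higher, 5.33% of the members, where 9.38% of all genes were lower and 20.5% higher, and limma gave 12 lower and 3 higher at an unadjusted p below 0.05 (16% and 4%, against 12.7% and 29.9% of all genes). The strains did not overlap for 16 members that were lower and 7 that were higher, against 13.5% and 31.4% of all genes. The median difference of the members was -0.09, which became 0.01 after scaling to the poly-A controls, and relative to all genes it was -0.30. After median centring 15 were lower, 20% against 13.8% of all genes. After scaling to the poly-A controls 0 were lower, against 5.3% of all genes. With quantile normalization the position relative to all genes was -0.14, and against the 737 bright genes it was -0.13. RPL33B (shared) gave 522, 507 and 577 in ρ0 cells, against 689, 796 and 826 in ρ+ cells, and these did not overlap (-0.52 ± 0.13, adjusted p = 0.00905). RPL36B gave 366, 327 and 398, against 554, 462 and 583 (-0.55 ± 0.16, adjusted p = 0.018). RPS14B gave 372, 370 and 317, against 441, 467 and 490 (-0.40 ± 0.14, adjusted p = 0.0402), so RPL36B and RPS14B passed the test in both media. Of the calls without glucose, that of RPS14B was kept in 9 of 22 alternatives, that of RPL33A in 8 of 21, and only that of RPL33B held whichever array was left out. Each strain comparison shares its arrays with the withdrawals. The count was 1 without replicate 3 of the ρ+ arrays lacking glucose, 2 without any 1 ρ+ array in glucose, and 11, of which 8 lower, without the second ρ0 array in glucose.

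**Figure D5:**
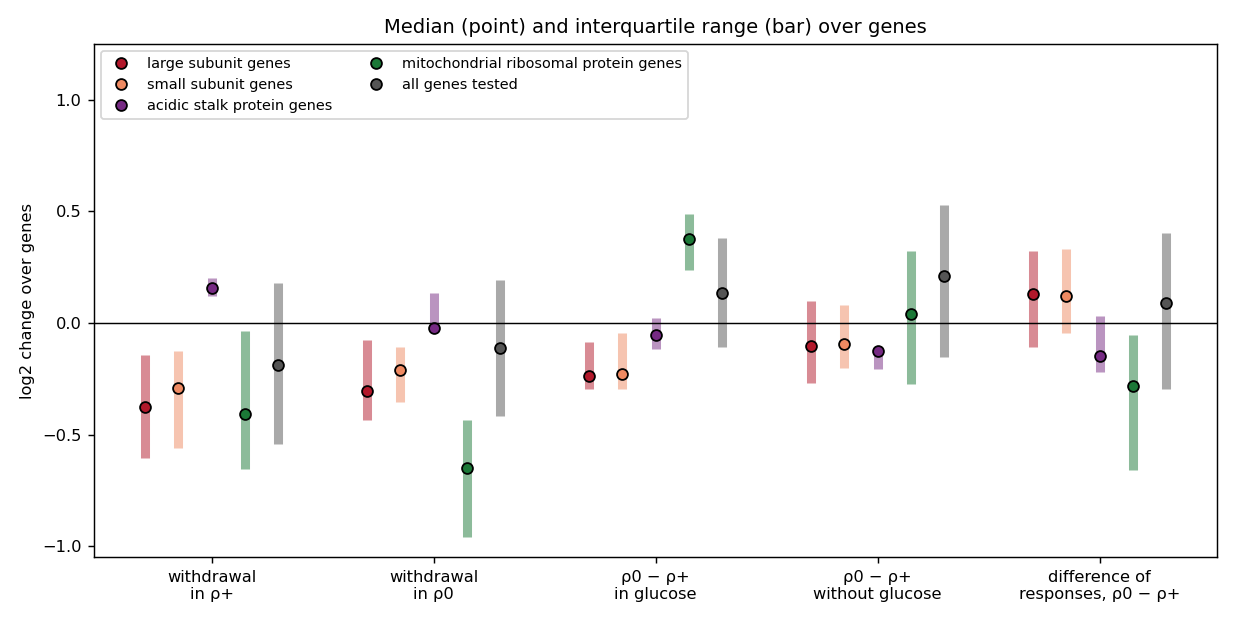
Median log2 change (points) and the interquartile range over genes (bars) in each of the 5 comparisons, for large subunit, small subunit, acidic stalk and mitochondrial ribosomal protein genes and for all genes tested. The medians of the large and small subunit genes lay below that of all genes in both withdrawals and in both strain comparisons. In glucose the mitochondrial ribosomal protein genes had a median of 0.38 in ρ0 against ρ+ cells, where that of all genes was 0.13.

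Genes that work with the ribosomal proteins are given for comparison. None of the 5 acidic stalk protein genes (RPP0 and its partners, which recruit elongation factors to the large subunit) passed the test in any comparison, also at an unadjusted p below 0.05, and their median change at withdrawal was 0.16 in ρ+ and -0.02 in ρ0 cells. Of the 67 mitochondrial ribosomal protein genes, 24 fell and 3 rose in ρ+ cells and 32 fell and 1 rose in ρ0 cells, or 35.8% and 47.8% lower, against 22.2% and 12.4% of all genes. Their medians were -0.41 and -0.65, and 5 of them had a lower and 1 a higher response in ρ0 than in ρ+ cells.

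Of 12 measured chaperones of ribosomal proteins and new chains, 4 fell in each withdrawal and 0 rose. At an unadjusted p below 0.05 limma gave 6 lower in ρ+ and 5 in ρ0 cells, and 0 higher in either. Of all genes 29.5% and 22.1% were lower at that threshold, and 13.7% and 9.77% higher. The shares of all genes that fell, for this and the next lists, were 22.2% in ρ+ and 12.4% in ρ0 cells, and those that rose 10.5% and 4.59%. YAR1, the chaperone of Rps3, fell by 0.68 ± 0.20 on the log2 scale in ρ+ and by 0.64 ± 0.20 in ρ0 cells (adjusted p = 0.0173 and 0.0365), while RPS3 changed by -0.30 ± 0.13 and -0.14 ± 0.13 and did not pass the test. SQT1, the chaperone of Rpl10, fell by 0.90 ± 0.20 in ρ+ cells (adjusted p = 0.00341), where RPL10 changed by 0.01. FAP7, which acts on Rps14, fell by 0.78 ± 0.17 and by 0.53 ± 0.17 (adjusted p = 0.00265 and 0.0413). EGD1, a subunit of the complex that binds new polypeptide chains on the ribosome, fell by 0.67 ± 0.18 and by 0.77 ± 0.18 (adjusted p = 0.012 and 0.0104). EGD2, for another subunit of that complex, changed by 0.166 ± 0.165 and 0.088 ± 0.165 and did not pass the test. Of the 12 chaperone genes, 1 had a change above 0 in ρ+ and 4 in ρ0 cells. Among 16 regulators of ribosomal protein genes, 5 fell and 1 rose in ρ+ cells and 1 fell in ρ0 cells. RAP1 fell in both strains, by 0.48 ± 0.16 and by 0.63 ± 0.16 (adjusted p = 0.0347 and 0.0165). SFP1 fell in ρ+ cells by 0.63 ± 0.20 (adjusted p = 0.0261), as did TOR1, UTP22 and RRP7. TOR1 was dim, with mean signals in ρ+ cells of 6.32 ± 4.78 without glucose and 13.4 ± 2.46 in glucose (SD). Only 1 of its 3 ρ+ arrays without glucose lay above the level of the filter on dim genes. DOT6, a repressor of ribosome biogenesis genes, rose in ρ+ cells by 0.78 ± 0.24 (adjusted p = 0.0215). STM1, which clamps idle ribosomes, fell in ρ+ cells by 1.04 ± 0.21 (adjusted p = 0.00188), as 1 of 2 genes that fell among 9 for ribosome preservation and recycling. Of 25 translation initiation factor genes 5 fell in ρ+ cells, and 4 rose and 1 fell in ρ0 cells. Of 9 elongation and termination factor genes 2 fell in ρ+ cells (SUP35 and SUP45, the release factors). In ρ0 cells 2 rose (TEF4 and HEF3, elongation factor genes). HEF3 was dim, with mean signals in ρ0 cells of 18.9 ± 1.95 without glucose and 8.82 ± 6.77 in glucose (SD). Only 1 of its 3 ρ0 arrays in glucose lay above the level of the filter on dim genes. In ρ+ cells the shares of initiation and of elongation and termination genes that fell were near that of all genes.

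The genes without a probe set of their own were covered in part. In a fit over 6242 probe sets, 25 of the 59 probe sets listed for several ribosomal protein genes fell in ρ+ cells and 10 in ρ0 cells, where 19.1% and 10.1% of all probe sets fell and 9.61% and 3.72% rose. None of the 59 rose. Their median changes were -0.36 and -0.23. Of the 99 probe sets listed for a single member, 48 and 14 fell. In ρ0 against ρ+ cells in glucose, 8 of the 99 and 1 of the 59 were lower and none higher, where 1.36% of all probe sets were lower and 3.86% higher. Without glucose 6 and 2 were lower and 1 and 1 higher, where 9.48% and 16.8% of all probe sets were. The response differed between strains for 3 of the 99, all higher in ρ0 cells, and for 0 of the 59, where 1.15% of all probe sets had a higher and 4.41% a lower response. Values of probe sets listed for several genes cannot be given to any 1 of them.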

How the data were processed

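Array signal intensities of 12 Affymetrix arrays were deposited as 1 linear value per probe set; per the submitters' processing notes, the authors made them with MAS5. The sources used here give neither its version nor its scaling target. The 12 arrays, all biotin-labelled cRNA from poly(A)+ RNA per the labels' protocols, fall into 4 groups of 3.

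Of 9335 probe sets, 6504 were listed for 1 gene and 328 for several. For each gene the probe set of highest mean signal was used. Values were log2(signal + 1.498), the 10th percentile of all signals, and genes needed a group mean above 5.822, the 25th percentile, which left 5361. limma 3.58.1 (R 4.3.3) fitted 4 group means to 12 arrays (8 residual degrees of freedom; eBayes with trend and robust settings); two-sided p-values were adjusted with Benjamini-Hochberg over all genes in each of 5 comparisons. The fit was tested on simulated data. The number of arrays limits precision. P-values measure the spread between replicate arrays. The members and gene lists were chosen with earlier results of these data known. Named genes followed a rule: the members called with the largest changes, the pairs with the largest differences, and fixed genes of known autoregulation or position. Alternatives changed scaling, pseudocount, filter, probe sets, arrays and the replicate block.

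Each culture was sampled in both media, but nothing in the labels ties equal replicate numbers to one culture, so the fit had no block. No genome build is stated for the array, so coordinates and sequences are left out.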

Additional observations from a re-analysis of the deposited data

Results flagged for a closer look

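The response of RPS7B to glucose withdrawal differed between the strains by the test of the difference itself: ρ0 minus ρ+ was 0.95 on the log2 scale, with an adjusted p of 0.00848 in limma. The difference ranged from 0.79 to 1.02 over 22 alternatives, and 21 of them stayed past the threshold; after scaling to the poly-A controls the adjusted p was 0.171. A second plain probe set of RPS7B did not pass the test. In the limma fit over all probe sets it gave 0.62 ± 0.24 with an adjusted p of 0.156.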

How the results depend on the processing

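Of 1199 repeats of 55 called changes of members, 962 kept their call, 236 lost it and 1 changed sign (RPS25B in ρ+ withdrawal, 0.0138 with probe sets not marked shared). With median centring, 15 members were called in ρ+ withdrawal (13 lower, 2 higher) with a median of -0.15, 3 in ρ0 withdrawal (-0.0843), 10 between strains in glucose (-0.39) and 15 without glucose (-0.29). With poly-A scaling, the counts were 8 (-0.27), 2, 0 (-0.0308) and 0 (0.0053), and 0 for the difference of responses. In ρ0 withdrawal, 20 were called with quantile normalization, 23 with a replicate block, 4 with only its groups fitted and 6 without both arrays of low hybridization controls, an alternative chosen after seeing the data, under which strains in glucose gave 2. Strains without glucose gave 2 with only their groups fitted, 2 with unshared probe sets and 8 with all probe sets averaged, where the difference of responses gave 2. Large minus small subunit medians with unshared probe sets were -0.0065 in ρ0 withdrawal and 0.0693 between strains without glucose. Leaving out 1 array gave 4 to 16 calls in ρ0 withdrawal, 0 to 5 between strains in glucose, 1 to 11 without glucose and 1 to 2 for the difference; large minus small in ρ+ withdrawal was -0.1115 to 0.0125. The causes were not tested. The replicate block changed no other count by more than 1.5 times. Deviations of same-numbered arrays from their group means correlated at 0.025, -0.025 and 0.107 in ρ+ and 0, 0.16 and 0.52 in ρ0 cells, and not every array correlated best with its own number, so the numbers were not shown to pair samples. RPL13A, RPL13B, RPS10A, RPS28B, RPS7B and RPS9A kept their ρ+ call in every alternative run, and RPS10A and RPS28B their ρ0 call.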
